A study of Mus musculus with 28 samples.

Results

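Gene expression in cultures of P19-derived neurons at day 8 was compared with that in the undifferentiated P19 cells of day 0. P19 is an established mouse line of embryonal carcinoma cells, a malignant counterpart of the pluripotent cells of the early embryo. The comparison uses 4 of the 28 samples of the series, 2 RNA-seq libraries at day 0 and 2 at day 8, which the submitters describe as biological replicates. Day 0 cells grew in MEM α with 10% FBS. Day 8 cells had spent 4 days in 1 µM retinoic acid and then another 4 days on poly-D-lysine in DMEM/F12 with 2% B27. No allele or knockdown distinguishes the groups, so day, medium, substrate and retinoic acid exposure differ together and cannot be told apart. RNA from 2 libraries of the intermediate stage, day 4 in retinoic acid, is given as a level beside some genes, and promoter windows were set against peak lists of that stage. Cultures of day 2 in 1 µM retinoic acid had DMSO or MS-275, a histone deacetylase inhibitor, added on day 1. The DMSO cultures give a level of 1 gene and a peak list, and all RNA libraries, those with MS-275 included, entered the fit. Both groups come from 1 line, and the p-values measure the spread between these libraries.

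Retinoic acid enters cells, binds nuclear receptors of the RAR and RXR families and switches on target genes, among them the Hox genes of the hindbrain and spinal cord. Pluripotent cells exposed to it leave the pluripotent state, pass through a proliferating neural progenitor stage and produce neurons. Young neurons then stop dividing, extend axons and build synapses from vesicle release proteins, scaffolds, receptors and ion channels.

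Total estimated counts were 19531955 and 18218510 at day 0 and 19415446 and 18581992 at day 8. Levels below are CPM, counts scaled to a common library size with TMM factors, in replicate 1 and then replicate 2. They can be compared between samples for a gene, not between genes, because they are not divided by transcript length. Counting error alone did not cover the difference between replicates, with a chi-square per degree of freedom of 2.76 at day 0 and 5.87 at day 8. Mitochondrial transcripts took 1.52% and 1.44% of counts at day 0 and 2.24% and 2.34% at day 8, and ribosomal protein genes 4.36% and 4.45% against 2.44% and 2.35%. In RNA from whole cultures, fewer cells of a type and less RNA per cell cannot be told apart.

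Most of the transcriptome differed between the stages. Of 17789 genes tested, 13373 (75.2%) were called at an adjusted p under 0.05, 6777 (38.1%) higher and 6596 (37.1%) lower at day 8. A change of at least 2-fold was called upward for 4265 genes (24.0%) and downward for 3287 (18.5%). The 2 groups of libraries did not overlap for 15301 genes (86.0%), with day 8 above day 0 for 7781 (43.7%) and below it for 7520 (42.3%). Large rises outnumbered large falls: 1457 called genes were fitted at 10-fold or more above day 0 and 679 at 10-fold or more below it. Among called genes, 358 had no counts at day 0 and 145 had none at day 8. The median log2 fold change over all genes tested was 0.024, and other scalings moved it by less than 0.1.

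The genes with the largest fitted rises were Hox genes, axon and adhesion molecules and neural transcription factors: Hoxb3, Hoxb6, Hoxb5, Hoxa5, Dcc, Chl1, Hoxb4, Nhlh2, Hoxc6, Hoxb8, Pax3 and Hoxc5. All but Hoxb8, which had 2 counts, had no counts at day 0, so the order among these genes is not read. The genes with the largest falls were the epithelial splicing regulator Esrp1, the DNA methylation cofactor Dnmt3l, Klk13, the actin-binding calponin Cnn1, Madcam1, Dppa4, the claudin Cldn6, Utf1, L1td1, Trib3, Tmem82 and the meiotic protein Sycp3. Cnn1 went from 101 and 90.2 CPM to 0.362 and 0.5297 (log2 fold change −7.73, SE 0.165, edgeR adjusted p = 2.43e-16). Trib3, a pseudokinase induced by amino acid stress, went from 263 and 253 to 1.81 and 2.701 CPM (log2 fold change −6.84, SE 0.181, edgeR adjusted p = 3.05e-15). Beyond single genes, 52 gene lists with 1110 genes were followed, of which 1054 could be tested: 608 were higher, 323 lower and 123 not called. Counts in each list are to be read against the 38.1% higher and 37.1% lower over all genes tested.

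**Figure D1:**
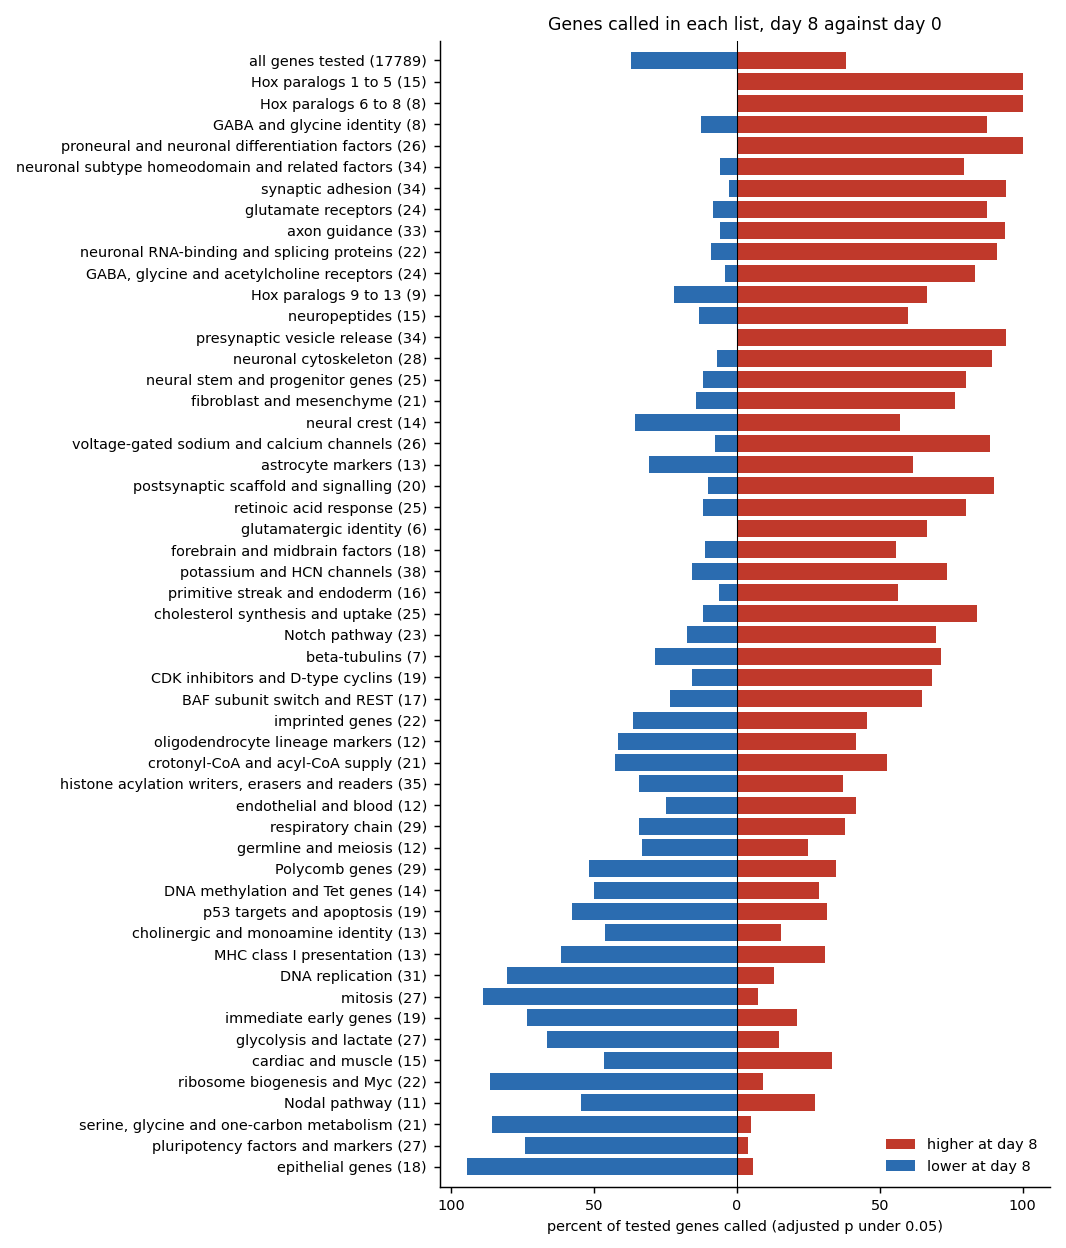
Percent of the tested genes of each list that were called higher (red, right) or lower (blue, left) at day 8, with the number tested in brackets and all 17789 genes in the top bar (38.1% and 37.1%). Lists are ordered by median change, and the Hox and neuronal lists at the top are mostly red while epithelial, pluripotency and metabolic lists at the bottom are mostly blue.

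Core pluripotency genes fell, but not all of them. Of 27 tested pluripotency factors and markers, 20 were lower, 1 was higher and 6 were not called (37.1% of all genes tested were lower, 38.1% higher), with a median log2 fold change of −2.84 against 0.024 over all genes. Pou5f1, which encodes Oct4 (chromosome 17, 35506032 to 35510777), measured 1434 and 1402 CPM at day 0 and 39.4 and 44.1 at day 8, 33.97-fold lower (log2 fold change −5.09, SE 0.0683, edgeR adjusted p = 1.62e-18). At day 4 it had stood at 2.31 and 2.999 CPM, so both day 8 libraries lay above both day 4 libraries while remaining far below day 0. Lin28a, an RNA-binding blocker of let-7 maturation, went from 588 and 608 to 44.8 and 57.6 CPM (11.7-fold lower, edgeR adjusted p = 1.14e-15), after 3.62 and 3.22 at day 4. L1td1, an RNA-binding protein of pluripotent cells, went from 439 and 466 to 2.84 and 4.45 CPM (124-fold lower), and the chromatin factor Utf1 from 335 and 314 to 3.205 and 1.91 (126-fold lower). Zscan10 fell 80.5-fold and Dppa4 185-fold. Taken over the whole list, summed levels were 4228 and 4236 CPM at day 0, 463 and 470.0 at day 4, and 491 and 540.2 at day 8.

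For several genes of the pluripotency network no fall was called. Nanog, the homeodomain factor of ground-state pluripotency, was low at both ends, 9.04 and 9.37 CPM at day 0 and 5.74 and 9.85 at day 8, and the groups overlapped (log2 fold change −0.24, SE 0.246, edgeR adjusted p = 0.386). It had been lower at day 4, with 0.315 and 1.17 CPM, and leaving out replicate 2 of day 8 made the day 8 level a called fall (log2 −0.74, edgeR adjusted p = 0.0262). Sox2, which is used by pluripotent and neural progenitor cells alike, measured 194 and 198 CPM at day 0 and 190.0 and 189 at day 8 (log2 fold change −0.046, SE 0.0511, edgeR adjusted p = 0.426). Klf4, Esrrb, Fgf5 and Nr5a2 were not called either, and all had means under 4 CPM in both groups. Tbx3, the list's single riser, encodes a T-box factor that also acts in limb development and went from 0.525 and 0.673 to 9.61 and 10.7 CPM. Otx2, a factor of primed pluripotency and later of the forebrain, fell 13.9-fold, from 224 and 230.4 to 15.5 and 17.1 CPM (edgeR adjusted p = 7.51e-14).

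Nodal signalling, which keeps primed pluripotent cells undifferentiated and later patterns the embryo, declined in part. Of 11 tested genes, 6 fell, 3 rose and 2 were not called, with a median log2 fold change of −1.33. The co-receptor Tdgf1 fell 27.2-fold, from 120.1 and 125 to 3.93 and 5.09 CPM, and the nuclear effector Foxh1 17.8-fold. The ligand Nodal was at 27.4 and 28.1 CPM at day 0 and 5.17 and 5.24 at day 8 (5.32-fold lower, edgeR adjusted p = 1.41e-10). Lefty1, its secreted inhibitor, went from 175 and 161 CPM at day 0 to 1.78 and 1.9996 at day 4 and 41.1 and 43.1 at day 8 (3.98-fold below day 0, edgeR adjusted p = 2.27e-10). The 3 genes that rose, among them the receptor Acvr2b (1.44-fold) and the transducer Smad2 (1.27-fold), changed by less than 2-fold.

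Epithelial genes fell almost throughout. Of 18 tested, 17 were lower by 2-fold or more and 1 was higher, with a median log2 fold change of −4.19 (−3.88 when genes without counts take their bound). Cdh1, which encodes E-cadherin, measured 112 and 111 CPM at day 0 and 4.34 and 3.34 at day 8 (28.9-fold lower, log2 fold change −4.85, SE 0.117, edgeR adjusted p = 9.73e-16). N-cadherin, encoded by Cdh2 and typical of neural tissue, went the other way, from 94.8 and 83.8 to 489.6 and 468 CPM (5.36-fold higher, log2 fold change 2.42, SE 0.05901, edgeR adjusted p = 1.12e-15). For both cadherins the libraries of day 8 lay apart from those of day 0. Esrp1, which directs epithelial splicing, had 24.2 and 26.9 CPM at day 0 and 0.0517 and 0 at day 8, where 1 count remained (ratio 975, 95% counting interval 174 to 38540.0). Such ratios rest on few counts: with 1 library left out, the fitted log2 fold change of Esrp1 ran from −11.95 to −8.83. The tight-junction protein Cldn4 had no counts at day 8 and was at least 40.4-fold lower, and the protease inhibitor Spint1 fell 40.2-fold. Dsp, the desmosomal plaque protein, was the exception and rose from 1.103 and 1.07 to 3.98 and 4.66 CPM (log2 fold change 1.99, SE 0.192, edgeR adjusted p = 6.74e-08).

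**Figure D2:**
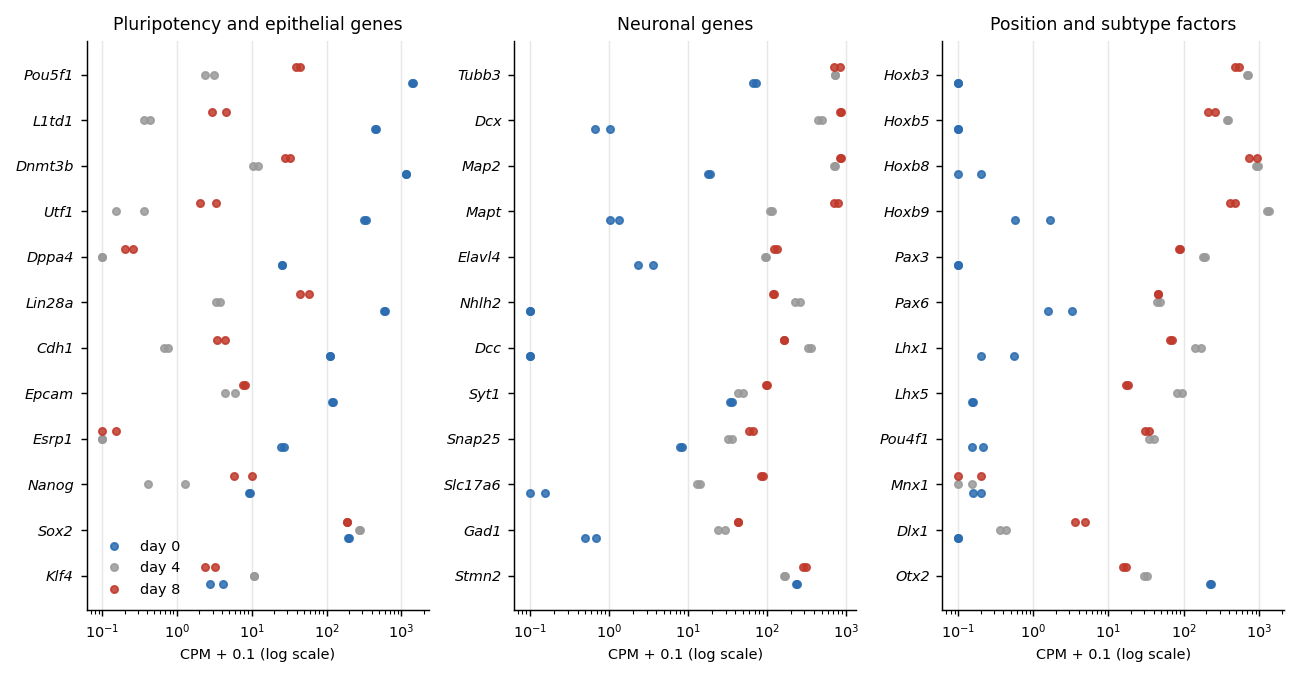
Level of 36 genes as CPM plus 0.1 on a log axis in each library at day 0 (blue), day 4 (grey) and day 8 (red), with 1 point per library. Pluripotency and epithelial genes lie far to the left at day 8 except Nanog, Sox2 and Klf4. Neuronal genes lie to the right of day 0, Stmn2 only slightly. Among position factors the Hox genes rise while Otx2 falls and Mnx1 stays near 0.

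Hox genes, which specify position along the body axis, went from none or nearly none to high levels. All 15 tested members of paralog groups 1 to 5 and all 8 of groups 6 to 8 rose, and of 9 tested in groups 9 to 13, 6 rose, 2 fell (1 in 4 of the alternative settings) and 1 was not called. Summed over the 15 genes of groups 1 to 5, levels were 2.57 and 2.13 CPM at day 0 and 1840 and 1676 at day 8. Hoxb3 (chromosome 11, 96307101 to 96347930) had no counts at day 0 and 537 and 484 CPM at day 8, at least 6274-fold higher when 3 counts in the group are taken as the floor. Hoxb5 reached 261 and 213 CPM and Hoxa5 193 and 187, at least 2911-fold and at least 2336-fold higher. Hoxb8, a gene of the trunk, went from 0.105 and 0 to 953 and 745 CPM, with 2 counts at day 0 (ratio 15670.0, 95% counting interval 4338 to 129400.0, fitted log2 fold change from 12.89 to 16.97 with 1 library left out). The more posterior Hoxb9 measured 0.473 and 1.57 CPM at day 0, 1352 and 1283 at day 4 and 483 and 416 at day 8.

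The rise ended within the posterior paralogs. Hoxa9 and Hoxc9 reached 8.94 and 11.02 and 7.34 and 6.67 CPM from no counts (at least 123-fold and at least 86.1-fold higher), and Hoxa10 1.34 and 2.22. Hoxb13, the most posterior gene of its cluster, fell from 5.202 and 3.93 to 0.362 and 0.583 CPM (log2 fold change −3.26, SE 0.358, edgeR adjusted p = 3.37e-07). Hoxa11, Hoxa13, Hoxc11, Hoxc12, Hoxd10, Hoxd11 and Hoxd12 had no counts in either day 8 library. Factors of the forebrain and midbrain moved in both directions. Of 18 tested, 10 rose, 2 fell (1 in 4 of the alternative settings) and 6 were not called, and their summed level was 229 and 236 CPM at day 0, which was mostly Otx2, and 63.3 and 66.3 at day 8. Dlx1, of ventral forebrain interneurons, reached 3.46 and 4.82 CPM from no counts (at least 50.9-fold higher). Whether reads of the many antisense transcripts within the Hox clusters were kept apart by strand was not stated in the sources used here.

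Genes of the retinoic acid response were higher at day 8 than at day 0, 4 days after the cells had been replated. Of 25 tested, 20 rose, 3 fell and 2 were not called, with a median log2 fold change of 1.77. Rarb, the receptor gene that retinoic acid itself induces (chromosome 14, 16430839 to 17082331), measured 1.58 and 0.897 CPM at day 0, 139 and 142 at day 4 and 48.1 and 50.8 at day 8 (39.5-fold above day 0, log2 fold change 5.302, SE 0.167, edgeR adjusted p = 2.6e-14). Rarg, the receptor form of pluripotent cells, fell 17.8-fold, from 71.7 and 66.5 to 3.26 and 4.503 CPM (edgeR adjusted p = 1.38e-13). Crabp1, which binds retinoic acid in the cytosol, rose 48.1-fold to 209 and 193 CPM, and the TALE homeodomain Hox cofactors Meis1 and Meis2 rose 289-fold and 89.1-fold. The orphan nuclear receptor Nr2f1 rose 339-fold, from 0.4203 and 0.336 to 136 and 126 CPM.

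Genes of the enzymes that degrade retinoic acid were higher before day 8. Cyp26a1 measured 0.788 and 1.01 CPM at day 0, 547 and 575 at day 2 in the solvent control cultures, 30.3 and 40.8 at day 4 and 2.89 and 1.96 at day 8, where it was 2.704-fold above day 0 (log2 fold change 1.44, SE 0.356, edgeR adjusted p = 0.00167). Cyp26b1 measured 111 and 147 CPM at day 4 and 3.62 and 3.07 at day 8, after a single count at day 0 (ratio 123, 95% counting interval 21.8 to 4913, fitted log2 fold change from 5.74 to 8.99 with 1 library left out). All libraries of these genes thus lay lower at day 8 than at day 4.

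The promoter windows of Rarb and Cyp26a1 hold a direct repeat of the kind that retinoid receptors are known to bind. Their sequences are shown because, among genes of this list that rose by 2-fold or more, these 2 held the motif before the start site. Of this list, 19 genes had a promoter entry, and those without such a rise were not considered for display. The motif searched was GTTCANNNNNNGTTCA, on both strands, within 250 bases before to 50 bases after each listed start site (RefSeq, GRCm38.p6). The start site listed for Rarb lies inside the span of the gene given above, which covers all its transcripts. The motif occurred in 0.0761% of all 32851 promoters in the table, counted per window. The shares that follow are per gene, where a match in any window of the gene counts, so the 2 kinds of share are not alike. Over all tested genes with an entry, it lay in 3 of 2804 (0.107%) that rose by 2-fold or more. It lay in 2 of 2311 (0.0865%) that fell as much and 3 of 7243 (0.0414%) of the others, and these shares were not tested. Capitals mark the match, which in Cyp26a1 is the reverse complement, and each sequence is on the strand of its gene, 5′ to 3′.
Rarb, chr14:16575493-16575548, minus strand, match starting 52 bases before the listed start site: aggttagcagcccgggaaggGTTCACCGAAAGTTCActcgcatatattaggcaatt
Cyp26a1, chr19:37697756-37697807, plus strand, match starting 32 bases before the listed start site: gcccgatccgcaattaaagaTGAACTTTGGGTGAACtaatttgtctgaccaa
Promoter windows of both genes overlapped peaks of acetylated H3K9 in the authors' day 4 lists. Fold enrichments over background were 129 and 133 at Rarb and 27.3 and 43.1 at Cyp26a1. In the single day 2 solvent list they were 108.0 at Rarb and 112 at Cyp26a1 (fold enrichments are the authors' values and are not compared between lists). Each value is the highest over all listed start sites of the gene, so it need not belong to the window printed.

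Genes of neural stem and progenitor cells rose. Of 25 tested, 20 rose, 3 fell and 2 were not called, with a median log2 fold change of 2.54, and their summed level was 2311 and 2277 CPM at day 0 and 5034 and 4995 at day 8. Sox1, the earliest neural plate factor, went from 2.15 and 1.402 to 70.03 and 63.9 CPM (37.3-fold higher, log2 fold change 5.22, SE 0.132, edgeR adjusted p = 1.7e-15), against 85.5 and 77.8 at day 4. Fabp7, a lipid carrier of radial glia, went from 1.103 and 0.729 to 406 and 387 CPM (427-fold higher), and the intermediate filament Nes, already present in P19 cells, rose 2.08-fold to 419 and 462 CPM. Pax6, a factor of dorsal and ventricular progenitors, measured 1.47 and 3.196 CPM at day 0 and 45.2 and 45.5 at day 8. The falls were Lrp2, an endocytic receptor of embryonic epithelia, from 856 and 852 to 61.8 and 74.6 CPM (12.5-fold lower), the glutamate transporter of radial glia Slc1a3 (2.95-fold lower), and the zinc finger factor Zic2, from 93.7 and 91.1 to 33.96 and 32.4 CPM.

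Every tested transcription factor of the neuronal differentiation cascade rose. All 26 proneural and neuronal differentiation factors were higher, 25 of them by 2-fold or more, with a median log2 fold change of 5.52 (5.198 at the bounds). The proneural factors that start the cascade, Neurog1 and Neurog2, measured 115 and 96.4 and 52.9 and 57.2 CPM at day 4 and 11.5 and 14.5 and 10.8 and 17.7 at day 8. Factors that act after them were near 0 in P19 cells: Nhlh2 went from no counts to 120.4 and 125 CPM (at least 1505-fold higher), Neurod2 from no counts to 16.3 and 14.9 (at least 191-fold higher), and the Snail-family repressor Scrt1 from 0.158 and 0.224 to 137 and 113 (635-fold higher, edgeR adjusted p = 1.39e-16). Ebf2, a helix-loop-helix factor of migrating neurons, had 2 counts at day 0 and 64.9 and 68.3 CPM at day 8 (ratio 1227, 95% counting interval 339 to 10140.0).

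Homeodomain and related factors that mark neuronal subtypes, many of them in the hindbrain and spinal cord, rose in most cases. Of 34 tested, 27 rose, 2 fell and 5 were not called, with a median log2 fold change of 5.74 (4.17 at the bounds). Pax3, of dorsal progenitors, reached 88.8 and 85.2 CPM and Dbx1, of an intermediate interneuron domain, 52.5 and 51.2, with no day 0 counts for either (at least 1069-fold and at least 637-fold higher). Lbx1, of dorsal interneurons, measured 49.4 and 40.9 CPM and Pou4f1, of sensory and dorsal excitatory neurons, 34.3 and 30.2 after 3 counts at day 0 (ratio 396, 95% counting interval 135 to 1925). Among factors of motor neurons, Isl1 rose from 0.158 and 0 CPM at day 0 through 32.7 and 33.9 at day 4 to 4.29 and 3.71 at day 8, with 3 counts at day 0 (ratio 49.2, 95% counting interval 16.5 to 241, edgeR adjusted p = 3.71e-09, fitted log2 fold change from 4.603 to 9.24 with 1 library left out). Mnx1 measured 0.105 and 0.0561 CPM at day 0 and 0.103 and 0 at day 8 and was not called. Phox2a, a factor of visceral motor and noradrenergic neurons, fell 2.08-fold.

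Genes that make a neuron glutamatergic, GABAergic or glycinergic rose. Of 6 tested glutamatergic genes, 4 rose, none fell and 2 were not called. Slc17a6, the vesicular glutamate transporter of the hindbrain and spinal cord, had 1 count at day 0 and 85.6 and 89.5 CPM at day 8 (ratio 3226, 95% counting interval 579 to 127500.0, fitted log2 fold change from 10.44 to 13.700 with 1 library left out), against 14.2 and 12.9 at day 4. Slc17a7, the transporter of the cortex, measured 0.946 and 1.51 and then 2.12 and 1.38 CPM, with overlapping groups (edgeR adjusted p = 0.107, called when either replicate 2 was left out, at log2 0.88 and 0.73). Of 8 GABA and glycine genes, 7 rose and 1 fell, with a median log2 fold change of 5.67. The GABA-synthesizing enzyme Gad1 went from 0.578 and 0.393 to 43.1 and 42.9 CPM (86.9-fold higher, log2 fold change 6.44, SE 0.251, edgeR adjusted p = 3.84e-13), and the neuronal glycine transporter Slc6a5 from 0.158 and 0.224 to 24.3 and 23.4 (121-fold higher). The fall was Slc6a9, the other glycine transporter, which fell 2.55-fold.

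Cholinergic and monoamine genes moved in both directions. Of 13 tested, 2 rose, 6 fell and 5 were not called (38.1% of all genes tested were higher, 37.1% lower). The median log2 fold change was −0.38, and the summed level was 27.8 and 31.2 CPM at day 0 and 25.4 and 28.4 at day 8. The count of 6 falls went to 3 when the 4 libraries were fitted alone, when the MS-275 libraries were left out of the fit, or without day 8 replicate 1. Chat, the acetylcholine-synthesizing enzyme, was at 0.103 and 0.424 CPM at day 8 (edgeR adjusted p = 0.418). The rises were Th, the enzyme of catecholamine synthesis, and Ache. Th went from 0.158 and 0.0561 to 1.34 and 1.32 CPM (edgeR adjusted p = 0.000183, fitted log2 fold change from 3.02 to 4.41 with 1 library left out). Ache, which degrades acetylcholine and is also made by other neurons, rose 8.89-fold to 8.63 and 9.7997 CPM. Among 15 tested neuropeptide genes, 9 rose, 2 fell (1 without replicate 2 of either stage) and 4 were not called: somatostatin (Sst) reached 10.7 and 9.48 CPM from no counts (at least 124-fold higher) and the granule protein Chgb 59.2 and 58.4 from 0.2102 and 0.224 (263-fold higher), while Vip and Crh had no counts at day 8.

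Genes of the neuronal cytoskeleton rose. Of 28 tested genes, 25 rose, 2 fell and 1 was not called, with a median log2 fold change of 2.66, and their summed level went from 3446 and 3470.4 CPM to 20826 and 18701. Dcx, the microtubule protein of migrating neurons (chromosome X, 143855842 to 143933396), measured 0.946 and 0.561 CPM at day 0, 496 and 451 at day 4 and 865 and 856 at day 8 (log2 fold change 10.13, SE 0.114, edgeR adjusted p = 4.53e-19). Mapt, the axonal protein tau (chromosome 11, 104229409 to 104332090), came later, with 0.946 and 1.23, 118 and 110.4 and 809 and 709 CPM at the 3 stages (695-fold above day 0, log2 fold change 9.44, SE 0.115, edgeR adjusted p = 1.02e-18). Map2, of dendrites, went from 17.9 and 19.2 to 845 and 870.1 CPM (46.3-fold higher) and Dpysl3, a growth-cone protein, from 64.3 and 66.3 to 2195 and 1986 (32.03-fold higher). For each of these genes both day 8 libraries lay above both day 0 libraries.

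Not all neuronal filament genes behaved alike. The light neurofilament Nefl rose 3.51-fold, from 24.1 and 27.6 to 90.7 and 90.4 CPM (edgeR adjusted p = 2.23e-12). The heavy neurofilament Nefh, an addition of mature axons, fell 3.95-fold, from 20.1 and 17.8 to 4.24 and 5.35 CPM (edgeR adjusted p = 1.69e-09), and peripherin (Prph), of peripheral neurons, fell 37.05-fold, from 34.4 and 37.8 to 1.19 and 0.742 (edgeR adjusted p = 3.92e-13). Stmn2, a growth-cone regulator of microtubules often used to mark neurons, was already at 235 and 244 CPM in undifferentiated cells and reached 317 and 287 (1.259-fold higher, log2 fold change 0.33, SE 0.0572, edgeR adjusted p = 5.79e-05). Of 7 beta-tubulins, 5 rose and 2 fell: the neuronal isotype Tubb3 went from 66.99 and 72.3 to 851 and 704 CPM (11.2-fold higher) and Tubb2b from 149.7 and 156 to 2109 and 1743 (12.6-fold higher), while Tubb6 fell 3.84-fold and Tubb4b 1.55-fold. Beta-tubulin isotypes share long stretches of sequence, so the split of reads between them is uncertain.

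**Figure D3:**
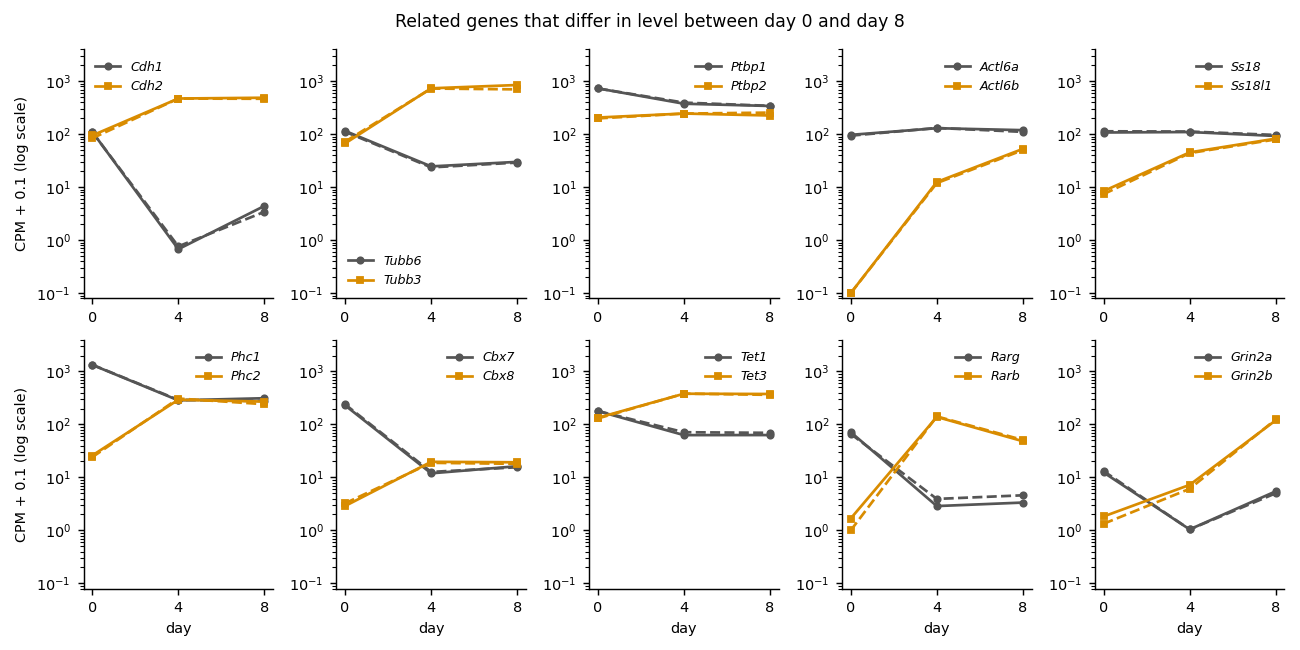
Levels at days 0, 4 and 8 (CPM plus 0.1, log axis) of 10 pairs of related genes, solid line replicate 1 and dashed line replicate 2. Each gene is to be compared between days, since CPM do not compare genes: Cdh2, Tubb3, Actl6b, Ss18l1, Phc2, Cbx8, Tet3, Rarb and Grin2b rose while Cdh1, Tubb6, Ptbp1, Phc1, Cbx7, Tet1, Rarg and Grin2a fell, and Ptbp2, Actl6a and Ss18 changed little.

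Genes for releasing transmitter rose together. Of 34 tested presynaptic genes, 32 rose, none fell and 2 were not called, with a median log2 fold change of 2.77. The active-zone scaffold Bsn went from 1.79 and 1.46 to 215 and 186 CPM (123-fold higher, log2 fold change 6.94, SE 0.146, edgeR adjusted p = 2.05e-16), the vesicle protein Syp from 6.73 and 9.702 to 166 and 145 (18.97-fold higher) and the fusion protein Snap25 from 8.35 and 7.96 to 65.9 and 60.2 (7.72-fold higher). Syt1, the calcium sensor of release, was present in undifferentiated cells at 36.5 and 34.2 CPM and rose 2.79-fold. The small GTPase Rab3c had 2 counts at day 0 and 172 and 167 CPM at day 8 (ratio 3129, 95% counting interval 866 to 25840.0, fitted log2 fold change from 10.56 to 14.65 with 1 library left out), and Sv2b reached 11.1 and 9.53 from no counts (at least 127-fold higher).

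On the receiving side, 18 of 20 tested postsynaptic scaffold and signalling genes rose and 2 fell, with a median log2 fold change of 1.81. The scaffold Shank1 went from 15.3 and 15.8 to 180.4 and 160.1 CPM (10.97-fold higher, log2 fold change 3.46, SE 0.0853, edgeR adjusted p = 1.28e-15), against 40.7 and 40.9 at day 4, and Dlgap1 from 0.315 and 0.393 to 23.6 and 19.4 (59.9-fold higher). Dlg4, which encodes PSD-95, had 68.1 and 63.6 CPM at day 0 and 253 and 223 at day 8 (3.61-fold higher). The activity-regulated Arc fell 5.51-fold, from 5.73 and 6.73 to 1.09 and 1.17 CPM, and Homer1, which also has an activity-induced short form, fell 1.65-fold.

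Synaptic adhesion molecules, which hold the 2 sides of the synapse together, rose in 32 of 34 tested cases, with 1 fall and 1 not called and a median log2 fold change of 4.01. Chl1, an L1-family adhesion molecule, had no counts at day 0 and 159.6 and 166 CPM at day 8 (at least 1999.7-fold higher), and the synaptic organizer Slitrk1 reached 22.3 and 20.3 (at least 262-fold higher). Tenm4, a teneurin abundant in P19 cells, was the exception, falling from 402 and 382 to 258 and 255 CPM (1.53-fold lower).

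Glutamate receptor genes rose, with exceptions among the NMDA subunits. Of 24 tested, 21 rose, 2 fell and 1 was not called, with a median log2 fold change of 3.503. Gria2, the AMPA receptor subunit that blocks calcium entry, went from 0.158 and 0.168 to 164 and 181 CPM (1018-fold higher, log2 fold change 9.99, SE 0.186, edgeR adjusted p = 5.35e-17). The obligatory NMDA subunit Grin1 rose 10.1-fold to 34.01 and 28.98 CPM, and the juvenile subunit Grin2b went from 1.73 and 1.23 at day 0 through 7.14 and 5.999 at day 4 to 119.9 and 125 (81.6-fold above day 0). The subunits of more mature or cerebellar synapses moved the other way: Grin2a fell 2.47-fold, from 12.3 and 13.1 to 5.38 and 4.93 CPM (edgeR adjusted p = 8.51e-06), and Grin2c fell 3.85-fold at levels under 2 CPM. The metabotropic receptor Grm5 measured 0.263 and 0.112 CPM at day 0, 0.525 and 0.444 at day 4 and 44.3 and 44.3 at day 8.

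Receptors for the inhibitory transmitters and acetylcholine rose in 20 of 24 tested cases, with 1 fall and 3 not called and a median log2 fold change of 3.33 (3.201 at the bounds). Glycine receptor subunits were among them: Glra1, of the adult brainstem and spinal cord, went from 0.6305 and 0.393 to 52.98 and 58.2 CPM (106-fold higher, log2 fold change 6.73, SE 0.159, edgeR adjusted p = 7.61e-16), and the embryonic Glra2 from no counts to 17.8 and 18.1 (at least 221-fold higher). Gabra4 fell 1.87-fold.

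Voltage-gated channels rose in most cases. Of 26 tested sodium and calcium channel genes, 23 rose, 2 fell and 1 was not called, with a median log2 fold change of 2.07. The embryonic sodium channel Scn3a went from 11.6 and 11.6 to 144 and 153 CPM (12.8-fold higher) and its auxiliary subunit Scn3b from 0.788 and 1.57 to 109 and 104 (91.04-fold higher, log2 fold change 6.51, SE 0.197, edgeR adjusted p = 1.49e-14). Cacna1b, the N-type calcium channel of nerve terminals, rose 4.86-fold to 131 and 122 CPM.

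Potassium and HCN channels were more mixed, with 28 of 38 tested higher, 6 lower and 4 not called, and a median log2 fold change of 1.56. Kcnq3, a subunit of the M-current, fell from 54.9 and 57.5 to 29.7 and 32.7 CPM (1.799-fold lower, edgeR adjusted p = 1.19e-06). Kcnk9, a leak channel, reached 54.1 and 50.4 CPM from no counts (at least 642-fold higher), and the A-type channels Kcnd2 and Kcnd3 rose 101-fold and 149-fold. The G-protein-gated Kcnj3 fell 6.398-fold, from 105 and 104 to 16.02 and 16.6 CPM.

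Axon guidance genes rose in 31 of 33 tested cases and fell in 2, with a median log2 fold change of 3.43. The netrin receptor Dcc had no counts at day 0, 365 and 333 CPM at day 4 and 163 and 165 at day 8 (at least 2014-fold above day 0). Robo3, the Slit receptor form of commissural axons, went from 0.315 and 0.561 through 751 and 754 to 286 and 269 CPM (631-fold above day 0), while Robo2 rose later, with 41.05 and 41.9 CPM at day 4 and 209 and 206 at day 8 (329-fold above day 0, log2 fold change 8.36, SE 0.123, edgeR adjusted p = 4.8e-18). The semaphorin co-receptor Plxna4 went from 0.158 and 0.112 to 138 and 126 CPM (927-fold higher). Unc5b, which also acts in vessels, fell 2.11-fold, and the secreted Sema3c fell 1.74-fold.

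**Figure D4:**
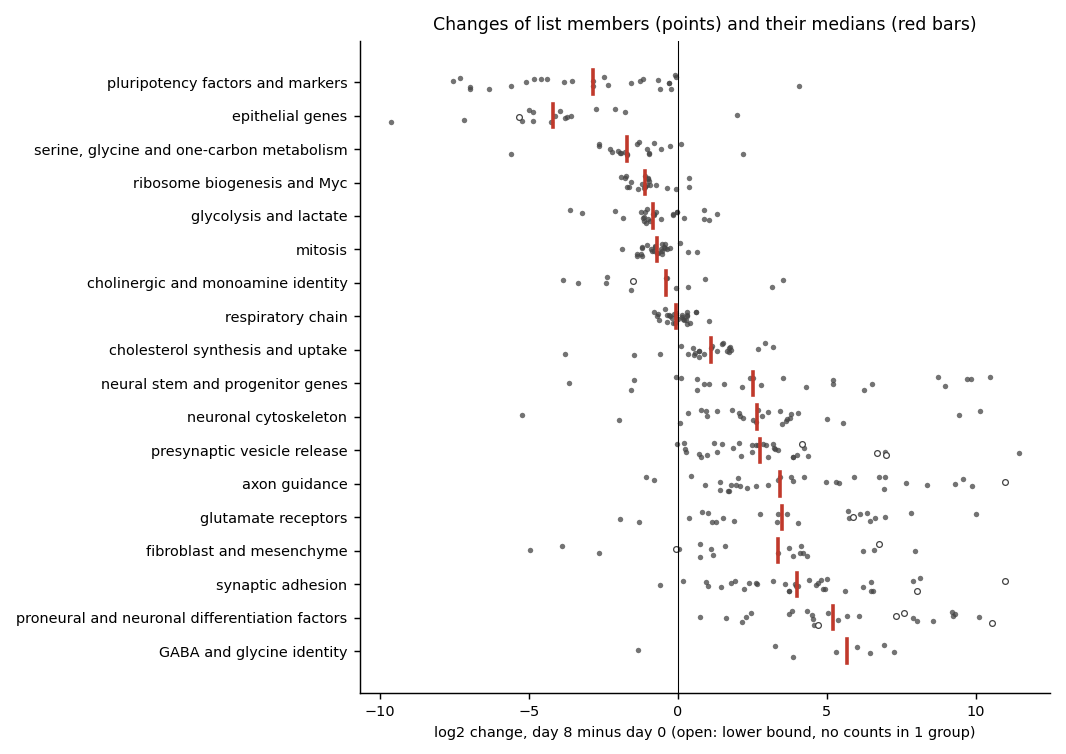
Log2 change from day 0 to day 8 of the tested members of 18 lists, 1 point per gene and a red bar at the median, with open points at the lower bound for genes without counts in a group. The median is lowest for epithelial genes and highest for GABA and glycine genes, and the respiratory chain lies at −0.049.

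Neuronal splicing regulators rose while the splicing repressor of dividing cells fell. Of 22 tested neuronal RNA-binding proteins, 20 rose and 2 fell, with a median log2 fold change of 3.405. Srrm4, which includes neural microexons, went from 3.57 and 2.52 to 139.9 and 138 CPM (45.3-fold higher, log2 fold change 5.502, SE 0.106, edgeR adjusted p = 7.77e-17), Rbfox1 from 0.788 and 0.785 to 73.1 and 71.2 (91.02-fold higher), and Rbfox3, which encodes the neuronal antigen NeuN, from 5.46 and 5.16 to 77.8 and 64.2 (13.3-fold higher). Elavl3 and Elavl4, the Hu proteins of neurons, rose 13.99-fold and 44.98-fold. Ptbp1, the repressor of neuronal exons, fell from 735 and 733 to 342 and 344 CPM (2.14-fold lower, log2 fold change −1.097, SE 0.0446, edgeR adjusted p = 6.85e-13). Its neuronal relative Ptbp2 measured 207 and 199 and 226 and 256 CPM, a rise that was lost without replicate 2 of either stage (edgeR adjusted p = 0.0611 and 0.291).

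The BAF chromatin remodelling complex is known to exchange subunits when progenitors become neurons, and the neuronal subunits rose. Of 17 genes tested for this exchange and the repressor REST, 11 rose, 4 fell and 2 were not called, with a median log2 fold change of 0.42. Actl6b, the neuronal actin-like subunit, went from no counts to 12.5 and 11.9 CPM at day 4 and 52.98 and 50.3 at day 8 (at least 634-fold above day 0). Ss18l1 went from 8.35 and 7.29 to 82.8 and 79.9 CPM (10.4-fold higher, log2 fold change 3.37, SE 0.09801, edgeR adjusted p = 9.11e-15) and Smarcd3 from 1.37 and 0.897 to 39.9 and 37.2 (33.7-fold higher). Of the progenitor subunits, Phf10 fell 1.86-fold, from 164 and 162 to 83.5 and 92.4 CPM, while Actl6a stood at 97.4 and 94.05 and 119.5 and 111 and its call was lost without day 8 replicate 1 (edgeR adjusted p = 0.0729).

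REST silences neuronal genes outside neurons by binding an element called RE1. Its gene Rest (chromosome 5, 77265494 to 77286432) measured 297 and 286 CPM at day 0, 72.6 and 75.8 at day 4 and 56.6 and 57.3 at day 8 (5.11-fold below day 0, log2 fold change −2.35, SE 0.0601, edgeR adjusted p = 1.9e-15). The left arm of RE1, TTCAGCACC, was searched on both strands in the 300-base promoter windows of 12358 tested genes with an entry. It lay in 25 of 2804 genes (0.892%) that rose by 2-fold or more, 11 of 2311 (0.476%) that fell as much, and 30 of 7243 (0.414%) of the others, against 0.371% of all promoters in the table. A gene counted where any of its windows held the match, and per window the shares were 0.723%, 0.370% and 0.331%. The right arm of RE1 lay in 9 (0.321%), 5 (0.216%) and 20 (0.276%) of the genes in these 3 groups. A match is a description of the letters, and no test was made of these shares. Both arms lay in windows of Psd, Ptprn2 and Unc13a, which rose by 2-fold or more, and of Tph2, which fell as much. Those matches lie after the start site and are not printed. The upstream matches in genes that rose and had at least 50 CPM at day 8 were picked after their levels were known. They are left-arm matches in windows without an exact match to the right arm. Right arms that differ in some letters were not searched for. Each is shown with the match in capitals, 5′ to 3′ on the strand of the gene.
Celsr3, chr9:108825898-108825946, plus strand: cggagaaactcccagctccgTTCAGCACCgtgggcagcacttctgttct
Dner, chr1:84696343-84696391, minus strand: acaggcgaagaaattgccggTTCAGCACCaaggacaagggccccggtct
Kidins220, chr12:24974817-24974865, plus strand: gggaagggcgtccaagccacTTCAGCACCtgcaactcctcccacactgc
Nsg2, chr11:32000479-32000527, plus strand: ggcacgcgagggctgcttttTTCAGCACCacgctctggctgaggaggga
Ppfia3, chr7:45367037-45367085, minus strand: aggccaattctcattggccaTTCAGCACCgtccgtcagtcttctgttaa
Syn1, chrX:20921122-20921168, minus strand: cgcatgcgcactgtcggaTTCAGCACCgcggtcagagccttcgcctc
Syn1, which encodes the vesicle-tethering synapsin I, went from 19.8 and 20.9 CPM at day 0 to 89.2 and 81.1 at day 8 (4.19-fold higher, log2 fold change 2.07, SE 0.0843, edgeR adjusted p = 7.28e-13). Nsg2, of neuronal endosomes, went from 22.3 and 20.4 to 789 and 688 CPM (34.6-fold higher), and the cadherin Celsr3 of axon tracts from 47.7 and 51.1 to 346 and 327 (6.81-fold higher). Ppfia3, a liprin of the active zone, rose 14.3-fold and the neurotrophin signalling scaffold Kidins220 2.92-fold. Dner, a Notch ligand of neurons, measured 0.263 and 0.0561 CPM and 262 and 239 CPM.

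Notch pathway genes, which hold neighbouring progenitors back from differentiating, were higher at day 8 in 16 of 23 tested cases, lower in 4 and not called in 3, with a median log2 fold change of 0.98. The ligand Dll1 went from 7.36 and 6.06 through 305 and 256 at day 4 to 121 and 128 CPM (18.6-fold above day 0, log2 fold change 4.21, SE 0.114, edgeR adjusted p = 3.77e-15). The target Hes5 had 3 counts at day 0 and 43.9 and 43.4 CPM at day 8 (ratio 536, 95% counting interval 183 to 2603), and the feedback inhibitor Nrarp rose 36.97-fold to 96.9 and 93.97 CPM. The falls were small, and included the target Hey1 (1.31-fold) and the coactivator Maml1 (1.68-fold).

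Division genes fell modestly and stayed expressed. Of 31 tested DNA replication genes, 25 fell, 4 rose and 2 were not called (median of −0.63 on the log2 scale), and of 27 mitosis genes 24 fell, 2 rose (1 without day 8 replicate 2) and 1 was not called (median of −0.701). Mki67, made in every phase of the cycle, measured 419 and 419.8 CPM at day 0, 417 and 452 at day 4 and 274 and 314 at day 8 (1.43-fold below day 0, log2 fold change −0.51, SE 0.0604, edgeR adjusted p = 7.76e-07). Top2a, which untangles DNA at mitosis, went from 1031 and 1006 to 408 and 484 CPM (2.28-fold lower), Bub1 of the spindle checkpoint from 189 and 177 to 44.04 and 55.8 (3.67-fold lower), and the replication helicase subunit Mcm2 from 385 and 385 to 189.9 and 186 (2.05-fold lower). Against this direction, the ribonucleotide reductase subunits Rrm2 and Rrm1 rose 2.45-fold and 1.64-fold, and cyclin A2 (Ccna2) 1.57-fold.

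CDK inhibitors, D-type cyclins and related genes rose in 13 of 19 tested cases, fell in 3 and were not called in 3, with a median log2 fold change of 0.86. Cdk5r1, the p35 activator of the neuronal kinase Cdk5, went from 6.25 and 6.73 to 329.7 and 297 CPM (48.3-fold higher, log2 fold change 5.59, SE 0.0862, edgeR adjusted p = 7.04e-18). Rb1, which restrains entry into S phase, rose 5.32-fold, from 4.89 and 4.65 to 24.1 and 26.8 CPM, and Btg2, expressed in neurogenic divisions, rose 5.399-fold. The inhibitors best known from cycle exit moved little: Cdkn1b rose 1.25-fold and Cdkn1a 1.71-fold, and Cdkn1c was not called (edgeR adjusted p = 0.166).

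Genes for making ribosomes fell. Of 22 tested ribosome biogenesis and Myc genes, 19 fell, 2 rose and 1 was not called, with a median log2 fold change of −1.09. Ncl, the main nucleolar protein, went from 2094 and 2105 to 517 and 592 CPM (3.78-fold lower, log2 fold change −1.92, SE 0.0546, edgeR adjusted p = 6.93e-15), Dkc1, which modifies ribosomal RNA, from 222 and 213 to 63.5 and 66.8 (3.34-fold lower), and Utp20 from 243 and 244 to 66.9 and 76.3 (3.403-fold lower). Mycn fell 1.67-fold and Mycl rose 1.29-fold. Myc was called higher, at 14.1 and 16.1 and 18.9 and 20.3 CPM, but not without replicate 1 of day 0 or replicate 2 of day 8 (edgeR adjusted p = 0.0629 and 0.0622).

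Metabolic genes moved list by list. Of 27 tested glycolysis and lactate genes, 18 fell, 4 rose and 5 were not called, with a median log2 fold change of −0.82. The glucose transporter Slc2a3 went from 1369 and 1274 to 129 and 154 CPM (9.32-fold lower, log2 fold change −3.22, SE 0.185, edgeR adjusted p = 7.35e-11), the lactate exporter Slc16a3 from 366 and 359 to 26.4 and 33.1 (12.2-fold lower), and hexokinase 2 (Hk2) from 236 and 244 to 55.9 and 55.8 (4.301-fold lower). Lactate dehydrogenase A (Ldha) fell 2.09-fold, from 498 and 478 CPM at day 0 to 218 and 249.8 at day 8, after a higher 553 and 626 at day 4, while the B subunit Ldhb was not called (edgeR adjusted p = 0.869). Aldoc, the brain aldolase, rose 2.47-fold as the ubiquitous Aldoa fell 3.59-fold.

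Serine, glycine and folate metabolism, which feeds nucleotide synthesis, fell in 18 of 21 tested cases, rose in 1 and was not called in 2, with a median log2 fold change of −1.69. The mitochondrial folate enzyme Mthfd2 went from 221 and 217 to 35.4 and 35.1 CPM (6.22-fold lower, log2 fold change −2.64, SE 0.103, edgeR adjusted p = 4.17e-13), the amino acid transporter Slc7a5 from 545 and 553 to 86.2 and 88.1 (6.3002-fold lower), and asparagine synthetase (Asns) from 314 and 316 to 71.2 and 65.8 (4.597-fold lower). Tdh, the threonine dehydrogenase of mouse pluripotent cells, fell 48.1-fold. Aldh1l1, a folate enzyme also used as an astrocyte marker, rose 4.54-fold, from 5.62 and 5.16 to 29.4 and 19.6 CPM.

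Cholesterol synthesis genes rose. Of 25 tested cholesterol genes, 21 rose, 3 fell and 1 was not called, with a median log2 fold change of 1.099. Hmgcs1, which makes the precursor of mevalonate, went from 115 and 115 to 835 and 900.1 CPM (7.55-fold higher, log2 fold change 2.92, SE 0.0518, edgeR adjusted p = 3.36e-17), and the sterol exporter Abca1 from 2.84 and 2.75 to 26.6 and 24.3 (9.08-fold higher). Apoe, the lipid carrier, fell 13.7-fold, from 332 and 321 to 23.9 and 23.7 CPM. Of 21 tested genes of crotonyl-CoA and acyl-CoA supply, 11 rose, 9 fell and 1 was not called, and Acly and Acat2, which make and use cytosolic acetyl-CoA, rose 3.13-fold and 4.58-fold. Of 29 tested respiratory chain genes, 11 rose, 10 fell and 8 were not called, with a median log2 fold change of −0.049, shares near those over all genes (38.1% higher, 37.1% lower), and the count of rises was 6 without day 8 replicate 1.

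DNA methylation genes moved in both directions. Of 14 tested, 7 fell, 4 rose and 3 were not called (37.1% and 38.1% of all genes fell and rose). The median log2 fold change was −0.33. Dnmt3b, a de novo methyltransferase (chromosome 2, 153649411 to 153687730), went from 1164 and 1169 to 27.9 and 32.8 CPM (38.5-fold lower, log2 fold change −5.26, SE 0.0737, edgeR adjusted p = 2.57e-18), and Dnmt3a from 1003 and 1006 to 271 and 260.4 (3.78-fold lower). Their cofactor Dnmt3l had 31.1 and 31.5 CPM at day 0 and 2 counts at day 8 (ratio 598, 95% counting interval 165 to 4942, fitted log2 fold change from −12.25 to −8.18 with 1 library left out). Among the demethylating dioxygenases, Tet1 fell 2.71-fold while Tet2 and Tet3 rose 4.15-fold and 2.803-fold.

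Polycomb genes, which keep developmental genes silent, included relatives that moved in opposite directions. Of 29 tested, 15 fell, 10 rose and 4 were not called (37.1% and 38.1% of all genes fell and rose), with a median log2 fold change of −0.21. Phc1 went from 1335 and 1343 to 313 and 277 CPM (4.54-fold lower, log2 fold change −2.18, SE 0.0553, edgeR adjusted p = 1.73e-15), and its relative Phc2 from 25.8 and 24.002 to 270.2 and 241 (10.3-fold higher, log2 fold change 3.36, SE 0.0745, edgeR adjusted p = 3.82e-16). The chromobox reader Cbx7 fell 14.8-fold, from 230.0 and 239.9 to 16.2 and 15.5 CPM, as Cbx8 rose 6.27-fold, from 2.78 and 3.14 to 19.2 and 17.96. Bmi1 rose 6.43-fold to 66.3 and 73.8 CPM. The methyltransferase Ezh2 measured 191 and 183 and 163 and 179 CPM (edgeR adjusted p = 0.0516), and 5 of 12 alternative settings called it lower.

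Writers, erasers and readers of histone acylation, the marks profiled elsewhere in the series, were called about as often as all genes (38.1% higher, 37.1% lower), with 13 of 35 tested higher, 12 lower and 10 not called. The deacetylase Sirt1 fell 5.32-fold, from 179 and 176 to 29.5 and 37.3 CPM (log2 fold change −2.41, SE 0.0897, edgeR adjusted p = 2.16e-13), and Cdyl, a chromodomain protein that converts crotonyl-CoA, fell 4.15-fold. Mllt3, a reader of acetyl and crotonyl lysine, rose 8.69-fold, from 8.302 and 7.85 to 65.5 and 75.01 CPM (log2 fold change 3.12, SE 0.0954, edgeR adjusted p = 1.73e-14). Hdac7 rose 3.46-fold and Sirt7 3.12-fold.

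The label of the day 8 culture was set against markers of other cell types. Their counts are to be read against 38.1% higher and 37.1% lower over all genes tested. Of 13 tested astrocyte genes, 8 rose, 4 fell and 1 was not called, with summed levels of 990.3 and 959 CPM at day 0 and 952 and 992 at day 8. The defining astrocyte filament Gfap stood at 0.6202 and 1.64 CPM at day 8 (edgeR adjusted p = 0.355), S100b at 0.0517 and 0.106 and Gjb6 at 0. Slc1a2, a glutamate transporter, went from 1.16 and 0.785 to 292 and 310.3 CPM (306-fold higher), and the other rises were Aqp4 (to 0.413 and 0.265 CPM), Aldh1l1, Aldoc, Sox9, Fgfr3, Nfia and Nfib. The falls were Slc1a3 (2.95-fold), Gja1 (1.99-fold), Apoe (13.7-fold) and Clu (6.36-fold), and many genes of the list are also made by radial glia. Among 12 tested oligodendrocyte genes 5 rose and 5 fell (3 without day 8 replicate 2), with sums of 35.5 and 33.4 CPM at day 0 and 69.8 and 68.5 at day 8. Olig2 reached 6.05 and 5.72 CPM, whereas Sox10, Mag and Cnp fell and Opalin stayed at 0. Of 12 tested endothelial and blood genes, 5 rose, 3 fell and 4 were not called, and their sums were 29.0 and 29.0 CPM at day 0 and 22.8 and 26.3 at day 8. The leukocyte marker Ptprc measured 0.0517 and 0.106 CPM at day 8, and the microglial genes Csf1r and Cx3cr1 had no counts.

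Fibroblast and mesenchyme genes rose alongside the neuronal ones. Of 21 tested, 16 rose, 3 fell and 2 were not called, with a median log2 fold change of 3.69 (2.397 at the bounds), and their summed level went from 548 and 544 CPM at day 0 to 1945 and 2001 at day 8. Col3a1, a fibrillar collagen, went from 2.52 and 2.07 to 569 and 579 CPM (248-fold higher, log2 fold change 7.96, SE 0.107, edgeR adjusted p = 1.64e-18), after 436 and 496 at day 4. Col1a1 went from 27.8 and 21.9 to 322 and 339 CPM, the proteoglycan Dcn from 0.6305 and 0.785 to 51.9 and 54.8 (74.9-fold higher), and Lum from no counts to 7.34 and 10.1 (at least 107-fold higher). The contractile genes Acta2 and Tagln fell 14.7-fold and 31.4-fold. The part of such cells in the other results was not tested.

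Genes of further lineages moved in both directions (38.1% of all genes tested were higher, 37.1% lower). Of 14 tested neural crest genes 8 rose and 5 fell: Tfap2b went from 0.105 and 0 to 44.3 and 41.6 CPM and the nerve growth factor receptor Ngfr from 0.6305 and 0.785 to 27.8 and 23.8 (36.3-fold higher), but Foxd3 fell 8.26-fold and Sox10 measured 0.413 and 0.212. Of 16 tested primitive streak and endoderm genes 9 rose, 1 fell (none with a filter of 1 CPM) and 6 were not called, with sums of 21.2 and 21.3 CPM at day 0 and 92.4 and 99.5 at day 8, to which Cxcr4, also made by migrating neurons, gave 41.1 and 48.05. Cardiac and muscle genes summed to 47.3 and 47.1 CPM at day 0 and 47.9 and 46.0 at day 8, with 5 of 15 tested higher and 7 lower.

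Immediate early genes, which neurons and other cells switch on within minutes of a stimulus, fell on the whole and separated the day 8 replicates. Of 19 tested, 14 fell, 4 rose and 1 was not called, with a median log2 fold change of −0.79. Their summed level was 1143 and 1209 CPM at day 0 and 921 and 522 at day 8. Fos measured 64.2 and 77.2 CPM at day 0 and 45.02 and 12.1 at day 8, and Egr1 250.2 and 264 and then 350.0 and 104, so that the day 8 libraries of Egr1 lay on either side of day 0. Without day 8 replicate 1 or 2 in turn the log2 fold change of Egr1 ran from −1.36 to 0.39, and that of Fos from −2.61 to −0.71. The 4 genes that rose were Nr4a2 (0.998 and 0.505 to 14.2 and 15.4 CPM, log2 fold change 4.27, SE 0.191, edgeR adjusted p = 2.54e-12), Nr4a3, Egr3 and Npas4, the last at 3.98 and 3.39 CPM.

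Genes that rose were longer as a group, which is given as a description. Of the tested genes with a RefSeq promoter entry, those that rose by 2-fold or more had a median gene length of 31.7 kb and 25.5% of them spanned at least 100 kb. Those that fell as much had a median of 20.8 kb with 10.0% at that length, and all 12358 genes together 23.2 kb with 14.0%. Their promoter windows overlapped H3K9ac peaks in both day 4 libraries for 83.6% of the genes that rose and 76.3% of those that fell, against 85.3% of all, and open chromatin in both for 55.7%, 52.5% and 66.7%. In the single day 2 solvent list the H3K9ac shares were 76.1%, 74.5% and 82.7%. No promoter window of Dcx overlapped an H3K9ac peak in the day 2 list, and the highest enrichments over its windows in the day 4 lists were 35.6-fold and 32.5-fold. For Pou5f1 the highest was 7.06-fold at day 2, and no window overlapped a peak at day 4. These are picked examples, and other genes differed. Trib3, which fell, had H3K9ac peaks of 69.5-fold and 33.7-fold in the day 4 lists, and Rbfox3, which rose, had none there. The depth of these lists is unknown, so a missing peak is not read as a change between days.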

How the data were processed

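Gene-level estimated counts were deposited as 1 RNA table, unscaled. The submitters' processing notes name Salmon 1.1.0 for the authors' quantification. The summing of transcripts to genes and the annotation release are not given in the sources used here. Of 55385 identifiers, 55144 were matched to a symbol. Rows without a gene name took at most 0.00326% of a library's counts.

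Estimated counts were rounded and tested with edgeR 4.0.16 (R 4.3.3): filterByExpr, TMM factors and a quasi-likelihood fit over all 10 RNA libraries in 5 groups, so that the groups share an estimate of the spread, with Benjamini-Hochberg adjustment over the 17789 genes kept. A call is an adjusted p under 0.05. CPM are rounded counts over library size times TMM factor. Standard errors come from the log2 fold change and the F statistic. Against 0 counts a fold is a lower bound over a floor of 3 counts in the group, and with 1 to 3 counts a ratio has an exact 95% counting interval. Both cover counting error only. Genes whose fold moved by over 1.5 times on leaving out 1 library are given as CPM or, where a group had 1 to 3 counts, as that ratio with the range of the fitted change. The fit was tested on simulated data for this comparison and recovered 97 of 100 genes changed by 1 on the log2 scale. There were 19 false calls (8.8% of calls). Another 100 genes were changed by 2, and all changed genes lay above a set mean level, equally up and down. All other genes were held equal across the groups, with the spread taken from the fit. In the data 75.2% of genes were called, so these shares do not carry over to them.

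The deposited peak lists give a fold enrichment over background per peak, the authors' value, per the file headers. Alignment and peak tools in the notes are MACS2 2.2.7.1 and Bowtie2 2.4.1, on GRCm38. A promoter counted as marked where a peak overlapped its window by 1 base or more in every library of that mark and day. Depth is unknown for these lists. Windows came from RefSeq (GRCm38.p6), matched by symbol for 12358 of 17772 tested symbols (69.5%), and were read with Python 3.11.15.

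Genes were named by rule: the 12 largest rises and 12 largest falls with at least 2-fold change and 10 CPM, a panel of 106 genes, and from each list the 5 largest changes and the 2 largest the other way with at least 1 CPM. Some genes that this rule selects are not reported here. Members and lists were chosen with earlier results of these data known. The replicate numbers are shared between groups, but replicate differences of day 0 and day 8 correlated at −0.031, so the libraries were not paired.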

Additional observations from a re-analysis of the deposited data

How the results depend on the processing

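The 5 counts of called genes kept within 1.5 times their value under all 12 alternatives each. Genes called numbered 13354 with DESeq2 size factors in edgeR, 13348 with library totals, 12462 with DESeq2's Wald test, 13722 without a filter, 12803 with a filter of 1 CPM, 12791 with the 4 libraries alone, 13152 without the MS-275 libraries and 12494 to 12840 with 1 library left out. With the replicate number as a block 13271 genes were called, 6715 higher and 6556 lower, and no replicate pairing was seen. Scaling to totals split the calls into 7008 higher and 6340 lower. Of 1248 list counts under alternatives, 19 moved by more than 1.5 times. The largest of these was the count of respiratory chain rises, 11 in the main fit and 6 without day 8 replicate 1. No called change of a gene picked by the naming rule reversed. With 1 library left out, the fitted change crossed 0 for 5 named genes that were not called, Chat, Gfap, Hdac11, Ldhb and Nanog. Calls of Ptbp2, Actl6a, Ccnd1, Myc, Slc6a2, Vgf and Nuf2, among others, were lost under at least 1 alternative, and those of Nanog, Slc17a7, Ldhb, Ezh2 and Hdac11 appeared. The cause was not tested. With 2 libraries a group, leaving out 1 leaves a lone sample whose spread is taken from the other groups.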

Other observations

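Imprinted genes, which are expressed from 1 parental allele and often set growth, were called about as often as all genes (38.1% higher, 37.1% lower): of 22 tested, 10 rose, 8 fell and 4 were not called. Igf2, the fetal growth factor, measured 38.8 and 38.9 CPM at day 0, 2205 and 2555 at day 4 and 1256 and 1260.4 at day 8 (32.4-fold above day 0, log2 fold change 5.02, SE 0.0711, edgeR adjusted p = 2.93e-18). The noncoding Peg13 rose 12.8-fold and the zinc finger gene Zim1 9.92-fold. Grb10, an adaptor that restrains growth factor receptors, went from 188 and 190.2 to 8.22 and 7.31 CPM (24.3-fold lower), and Phlda2, a growth inhibitor of the placenta, from 63.8 and 63.1 to 4.96 and 3.97 (14.2-fold lower).

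MHC class I presentation genes fell in 8 of 13 tested cases and rose in 4. H2-K1 went from 81.1 and 77.5 to 20.3 and 18.5 CPM (4.09-fold lower) and H2-D1 from 33.05 and 32.1 to 3.98 and 3.602 (8.58-fold lower, log2 fold change −3.101, SE 0.109, edgeR adjusted p = 1.04e-13). Class I genes are near copies of each other, so the split of reads among them is uncertain. Of 19 tested p53 targets and apoptosis genes, 11 fell and 6 rose. The stress gene Sesn2 fell 5.98-fold, from 208 and 210.0 to 35.1 and 34.8 CPM, the survival factor Bcl2l1 rose 2.63-fold to 109 and 96.2, and the kinase Plk2 rose 19.6-fold. Among 12 tested germline genes, 4 fell and 3 rose (37.1% and 38.1% of all genes fell and rose). The meiotic axis protein Sycp3 fell 105-fold, from 22.96 and 22.3 to 0.207 and 0.212 CPM. The receptor Kit, also made by neurons, rose 8.81-fold to 56.2 and 61.4 CPM.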
